A study of Mus musculus with 8 samples.

Results

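ADAM and ADAMTS genes encode zinc-dependent proteases of the cell surface and the extracellular matrix, and 10 of them were examined here by name among the 41730 rows of the count table: Adam8, Adam9, Adam10, Adam12, Adam15, Adam17, Adam19, Adamts1, Adamts4 and Adamts5. All 10 had a row and all 10 passed the filter on low counts. RNA-seq had been done on spheroids of 4T1, a mouse mammary carcinoma line, grown in hanging drops. The 4 libraries of one group came from cells with a lentivirus for a scrambled hairpin RNA (shCtrl), and the 4 of the other from cells with a lentivirus for a hairpin against Tlr7 (shTlr7), the endosomal receptor for single-stranded RNA. Both groups therefore carried a lentiviral hairpin, and the labels name 1 hairpin against Tlr7. Whether the libraries within a group stem from different cultures is not stated in the labels, so every p-value here reflects spread among these libraries alone, possibly technical.

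ADAM proteases are membrane-anchored and cut other membrane proteins close to the cell surface, a step called shedding that releases growth factors, cytokines and adhesion domains. ADAMTS proteases lack the membrane anchor, are secreted, bind the matrix through thrombospondin-type repeats and cut large proteoglycans such as aggrecan and versican. Both are made as inactive precursors that proprotein convertases such as furin activate, and TIMP proteins inhibit several of them. In mammary carcinoma these enzymes are studied for the release of ligands of the EGF receptor and for the breakdown of matrix around tumour cells.

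The zinc-binding site shows what the 10 genes share in sequence. In the catalytic domain 3 histidines hold the zinc ion, and a glutamate beside the first takes part in the cut. The coding sequence of this site was found by translating 1 GENCODE M21 transcript per gene (GRCm38) and is given 5′ to 3′ in sense, as 33 bases or 11 codons, with the codons of the 3 histidines in capitals.
Adam8: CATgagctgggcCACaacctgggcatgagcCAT
Adam12: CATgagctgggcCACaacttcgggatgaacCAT
Adam19: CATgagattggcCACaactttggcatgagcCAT
Adam9: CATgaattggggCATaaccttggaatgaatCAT
Adam15: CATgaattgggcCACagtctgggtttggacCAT
Adam10: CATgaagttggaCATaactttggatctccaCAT
Adam17: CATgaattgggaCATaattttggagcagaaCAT
Adamts1: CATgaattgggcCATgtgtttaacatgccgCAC
Adamts4: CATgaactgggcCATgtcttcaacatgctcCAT
Adamts5: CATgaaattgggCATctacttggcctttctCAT
All 10 genes held the site. The glycine that usually lies at codon 8 of the 11 was encoded in 8 of the genes, Adamts1 and Adamts4 being the exceptions. Between pairs of genes 17 to 29 of the 33 bases were identical. Adam8 shared 29 bases with Adam12 and 29 with Adam19, and Adam12 shared 28 with Adam19. On the minus strand the site of Adam8 lay at chr7:139987893-139987925 in exon 11 of 24, that of Adam12 at chr7:133961158-133961190 in exon 11 of 23, and that of Adam15 at chr3:89344780-89344812 in exon 11 of 23. The sites of Adam10, Adamts1, Adamts4 and Adamts5 were each split over 2 exons. That of Adamts4 lay in exons 3 and 4, between chr1:171253210 and chr1:171253915 on the plus strand.

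Library totals ranged from 18.1 to 93.8 M counts. Tlr7 itself had 2 or 3 counts in each shCtrl library and 0 to 4 in each shTlr7 library, too few to check the labels. The library numbered 4 stood apart from the other 3 in both groups, on a second principal component that held 4.85% of the variance. Of 8 markers of mammary epithelium 7 passed the filter and 1 (Krt5) was at 0 in all libraries. Their summed level was 5577 to 6051 CPM in shCtrl and 4099 to 4381 CPM in shTlr7. The members went both ways: all 5 tested keratins were called lower, among them Krt7 at -1.19 and Krt14 at -3.50 in log2, whereas Epcam (0.15) and Cdh1 (0.20) were called higher. Leukocyte markers summed to 23.2 to 28.1 CPM in shCtrl and 31.4 to 44.5 CPM in shTlr7, nearly all of it Cd68, with Adgre1 at 0 throughout. Fibroblast markers summed to 43.7 to 45.2 and 43.1 to 48.0 CPM, nearly all of it Pdgfra, with Thy1 and Col3a1 among 7 at 0. Endothelial markers reached at most 0.643 CPM, with Emcn among 5 at 0. The epithelial and leukocyte sums thus differed between the groups without overlap, and their part in the results was not tested.

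The comparison asks which of these proteases differ in transcript level between shTlr7 and shCtrl spheroids. Adam12, Adamts4, Adam8, Adamts5 and Adam19 were at least 2-fold lower in shTlr7, and Adamts1 was lower by a smaller step. Adam15 was higher, Adam9 and Adam17 were higher by smaller steps, and Adam10 did not pass the test. This makes 6 of 10 called lower, where 26.8% of the 13393 tested genes were called lower, and 3 of 10 called higher, where 29.3% were (edgeR quasi-likelihood test, Benjamini-Hochberg adjusted p under 0.05 over all tested genes). At least 2-fold lower were 5 of the 10, against 4.23% of all genes, and at least 2-fold higher 0 of 10, against 3.29%. These folds are point estimates, and 1 of the 5, Adamts5, was close to absent, at 8 to 37 counts per library. Adamts5 passed the filter on low counts only through its shCtrl libraries, where it was higher. Its place in the counts of this paragraph is therefore no support for a decrease. The median log2 fold change was -0.81 over the 10 genes and 0.01 over all tested genes. Levels in CPM (counts scaled to depth by TMM) were without overlap between the groups for 7 of the 10, against 49.8% of all genes: 6 lay wholly lower in shTlr7, against 23.8%, and 1 wholly higher, against 26.0%. Without both libraries numbered 4, again 6 were called lower and 3 higher. With RLE scaling or DESeq2, 6 were called lower and only 1 higher. When a change of more than 1.5-fold was required, 4 were called lower and 0 higher. The genes were chosen with results of these data known, so these counts describe them and carry no test. In such bulk samples, fewer cells that express a gene and less of its RNA per cell cannot be told apart.

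**Figure D1:**
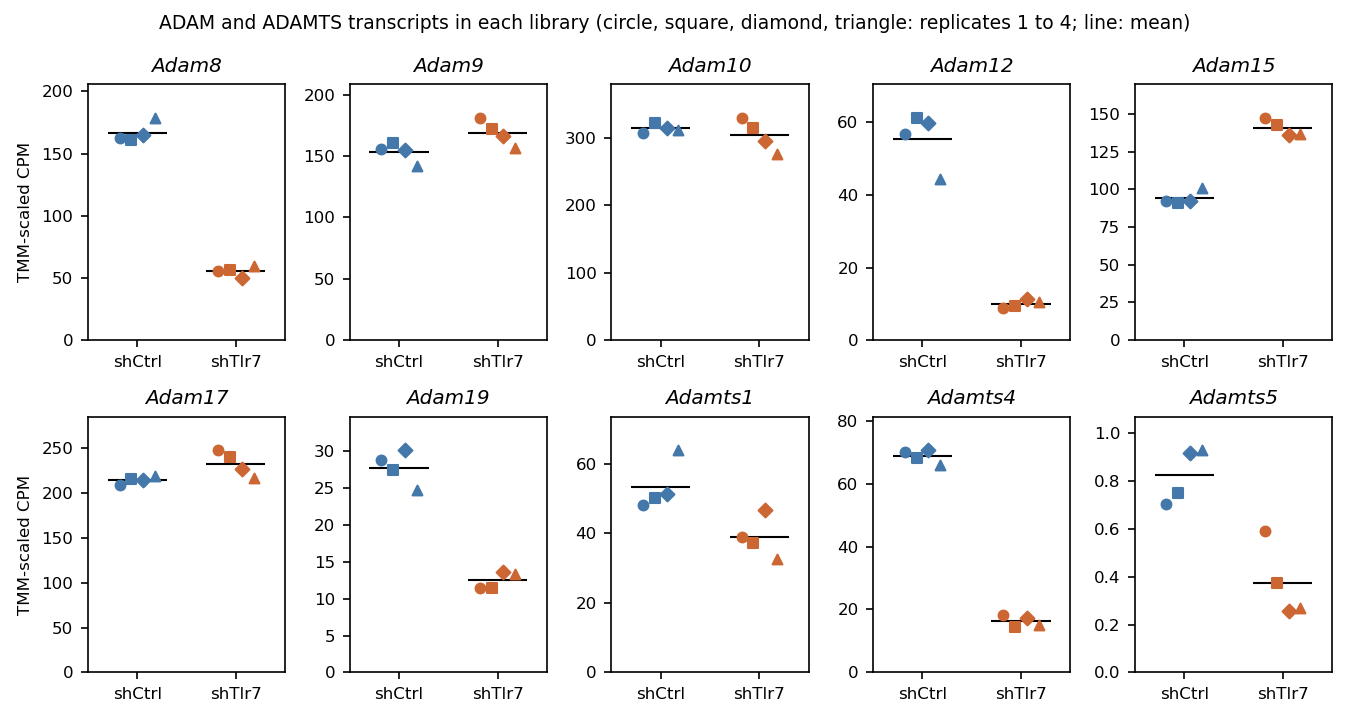
Each panel plots 1 gene, with TMM-scaled CPM on a vertical axis that starts at 0 and the 2 groups side by side. Symbols are the 4 libraries of a group and the line is their mean. The shTlr7 libraries of Adam8, Adam12, Adam19, Adamts1, Adamts4 and Adamts5 all lie under the shCtrl libraries, those of Adam15 all lie above, and those of Adam9, Adam10 and Adam17 overlap.

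Among the membrane-anchored ADAMs, Adam12 fell most. It encodes meltrin alpha, a sheddase that is rare in most adult tissues and is often raised in carcinomas (chromosome 7, 133883199 to 134225097, GRCm38.p6). Its level was 56.8, 61.2, 59.7 and 44.4 CPM in shCtrl replicates 1 to 4, and 8.84, 9.45, 11.4 and 10.5 CPM in shTlr7 replicates 1 to 4. The lowest shCtrl library, replicate 4, still lay far above the highest shTlr7 library. In the fit Adam12 was 5.53-fold lower (log2 fold change -2.47 ± 0.11, SE, n = 4 libraries per group, edgeR adjusted p = 8.67e-09). Of all tested genes, 98 had a lower log2 fold change.

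Adam8 encodes a sheddase known from leukocytes that cancer cells also make, and it activates itself rather than relying on furin (chromosome 7, 139978932 to 139995207). Its level was 162, 161, 165 and 179 CPM in shCtrl replicates 1 to 4, and 55.6, 56.1, 50.3 and 59.9 CPM in shTlr7 replicates 1 to 4. The libraries numbered 4 were the highest in both groups, and the groups lay far apart. Adam8 was thus 3.00-fold lower (log2 fold change -1.59 ± 0.06, SE, edgeR adjusted p = 9.38e-11). Of the 2 leukocyte markers that could be tested, Cd68 was higher in shTlr7 (0.72 in log2, edgeR adjusted p = 1.41e-04) and Csf1r lower (-2.17, edgeR adjusted p = 4.39e-06). Csf1r had 169 counts over all libraries and passed the filter on low counts only through shCtrl. The part of these 2 markers in the result for Adam8 was not tested.

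Adam19, or meltrin beta, is a sheddase that can release neuregulin (chromosome 11, 46054502 to 46147347). It had 28.8, 27.5, 30.2 and 24.8 CPM in shCtrl replicates 1 to 4, and 11.5, 11.5, 13.7 and 13.3 CPM in shTlr7 replicates 1 to 4. Every shTlr7 library was lower than every shCtrl library. The fitted decrease was 2.23-fold (log2 fold change -1.15 ± 0.08, SE, edgeR adjusted p = 6.46e-08). Of its exon length 11.2% overlaps genes on the opposite strand, Gm16033 and Gm16034, which have no row among the counts. Reads of such a partner cannot be told apart here because the strand setting of the counting is not given in the sources used.

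Adam15 was the 1 member whose shTlr7 libraries all lay above its shCtrl libraries. It encodes metargidin, a membrane protease whose disintegrin domain binds integrins (chromosome 3, 89339640 to 89350028). Levels were 92.3, 90.7, 92.1 and 101 CPM in shCtrl replicates 1 to 4, and 148, 143, 136 and 137 CPM in shTlr7 replicates 1 to 4. The shCtrl replicate 4 stood above the other 3 shCtrl libraries and still well below all shTlr7 libraries. Adam15 was about 1.5-fold higher (log2 fold change 0.58 ± 0.05, SE, edgeR adjusted p = 2.20e-07). It was not called when a change of more than 1.5-fold was required. Of its exon length in GENCODE M21, 24.7% overlaps a transcript on the opposite strand, 4731419I09Rik. That transcript has no row among the counts, so its level could not be given. Its part in the result for Adam15 was not tested.

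The 2 most studied sheddases, Adam17 and Adam10, moved little. Adam17, also called TACE, is induced to cut by many stimuli and releases TNF and several ligands of the EGF receptor, and Adam10 cuts Notch receptors, cadherins and betacellulin. Adam17 had 210, 215, 215 and 219 CPM in shCtrl replicates 1 to 4, and 248, 240, 226 and 217 CPM in shTlr7 replicates 1 to 4. Of the shTlr7 libraries, replicate 4 lay within the shCtrl range and the other 3 above it. Adam17 was 1.08-fold higher (log2 fold change 0.12 ± 0.05, SE, edgeR adjusted p = 0.0407). Of its exon length 6.9% overlaps the esterase gene Iah1 on the opposite strand, whose log2 fold change was 0.22 (edgeR adjusted p = 0.0616).

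Adam9, or meltrin gamma, is a widely expressed sheddase. It had 156, 160, 155 and 142 CPM in shCtrl replicates 1 to 4, and 181, 172, 167 and 156 CPM in shTlr7 replicates 1 to 4. The libraries numbered 4 were the lowest of both groups, and shTlr7 replicate 4 lay among the shCtrl libraries. Adam9 was 1.10-fold higher (log2 fold change 0.14 ± 0.05, SE, edgeR adjusted p = 0.0321). The calls of Adam9 and Adam17 were near the threshold, and for each, leaving out any of several libraries ended the call. Without shCtrl replicates 1, 3 or 4, the edgeR adjusted p of Adam9 was 0.0625, 0.0745 and 0.0848, and without shTlr7 replicates 1 or 2 it was 0.101 and 0.0772. Without shCtrl replicates 1, 2 or 3, that of Adam17 was 0.120, 0.0793 and 0.0997, and without shTlr7 replicates 1 or 2 it was 0.121 and 0.113. RLE scaling gave 0.0517 for Adam9 and 0.0653 for Adam17, and DESeq2 gave 0.0573 and 0.0686. Both calls were also lost at an adjusted p under 0.01 and when a change of more than 1.5-fold was required. For each of the 2 genes, 9 of 18 alternatives ended the call and 9 kept it. Without both libraries numbered 4, the edgeR adjusted p was 0.00726 for Adam9 and 0.00213 for Adam17. The limma-voom adjusted p was 0.00902 and 0.00365.

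Adam10 had 308, 322, 315 and 312 CPM in shCtrl replicates 1 to 4, and 330, 314, 295 and 276 CPM in shTlr7 replicates 1 to 4. The shTlr7 libraries spread on both sides of the shCtrl range. For Adam10 the log2 fold change was -0.05 ± 0.05, with a 95% interval from -0.16 to 0.06 (edgeR adjusted p = 0.430), and 0.05 under scaling by library size alone (edgeR adjusted p = 0.352). This interval leaves out the log2 fold changes of the other ADAMs that fell, but a difference from 0 was not shown.

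**Figure D2:**
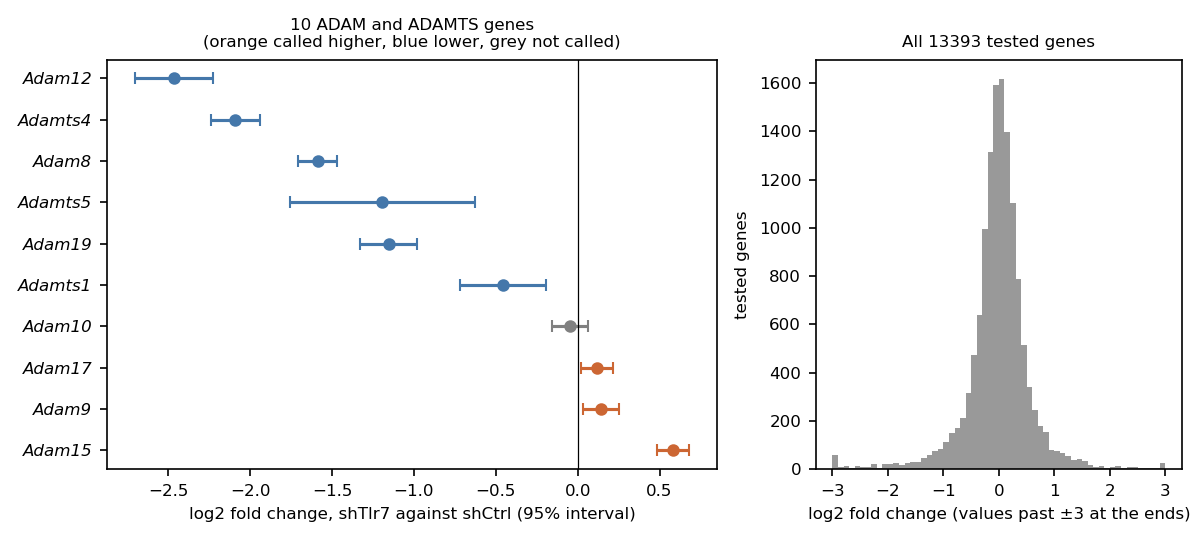
The left panel plots the log2 fold change of shTlr7 against shCtrl for the 10 genes, with 95% intervals from the fit, and the right panel is a histogram of the same quantity over all 13393 tested genes. The 6 genes called lower lie between -2.47 and -0.46, and the 3 called higher between 0.12 and 0.58.

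All 3 secreted ADAMTS proteases were called lower, although Adamts5 was close to absent. Adamts4, an aggrecanase (chromosome 1, 171250129 to 171262267), had 70.0, 68.2, 70.7 and 66.0 CPM in shCtrl replicates 1 to 4, and 18.2, 14.6, 17.3 and 15.1 CPM in shTlr7 replicates 1 to 4. Libraries of a group lay close together and the groups lay far apart. Adamts4 was 4.26-fold lower (log2 fold change -2.09 ± 0.07, SE, edgeR adjusted p = 5.42e-11).

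Adamts1 cuts versican and aggrecan and can bind VEGF (chromosome 16, 85793827 to 85803113). It had 48.1, 50.2, 51.4 and 64.0 CPM in shCtrl replicates 1 to 4, and 39.1, 37.3, 46.7 and 32.7 CPM in shTlr7 replicates 1 to 4. The groups came close, at 46.7 CPM in shTlr7 replicate 3 and 48.1 CPM in shCtrl replicate 1, but did not overlap. The libraries numbered 4 held the highest shCtrl value and the lowest shTlr7 value. Adamts1 was 1.37-fold lower (log2 fold change -0.46 ± 0.12, SE, edgeR adjusted p = 0.00783). Without both libraries numbered 4 it was -0.30 (edgeR adjusted p = 0.00152).

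Adamts5 is the other main aggrecanase (chromosome 16, 85858157 to 85901125), and its transcript was close to absent. Reads assigned to it numbered 13, 37, 18 and 21 in the shCtrl libraries (replicates 1 to 4) and 11, 36, 9 and 8 in the shTlr7 libraries. Scaled by depth, this was 0.701, 0.749, 0.918 and 0.928 CPM in shCtrl, and 0.590, 0.372, 0.257 and 0.269 CPM in shTlr7. The groups did not overlap, though the shTlr7 libraries differed among themselves more than 2-fold. Adamts5 was lower by the test, with a wide error (log2 fold change -1.19 ± 0.26, SE, edgeR adjusted p = 0.00157). It passed the filter on low counts only through its shCtrl libraries, so this test lends no support to a decrease. Requiring 1 CPM in 4 libraries left Adamts5 out of the test.

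Levels of different genes were compared per exon length, as CPM per kb. In shCtrl the order was Adam10 at 68.4, Adam8 at 53.5, Adam17 at 47.6, Adam9 at 37.9, Adam15 at 31.6, Adamts4 at 14.3, Adamts1 at 10.9, Adam12 at 7.24, Adam19 at 4.36 and Adamts5 at 0.0764 CPM per kb. The ranges of the 4 libraries did not overlap between any neighbours in this order. Such ranges do not measure error in the exon lengths, which came from GENCODE M21. The annotation used for the counts is not given, so the order between genes is approximate. In shTlr7 the order was Adam10 at 66.2, Adam17 at 51.6, Adam15 at 47.4, Adam9 at 41.8, Adam8 at 17.8, Adamts1 at 7.97, Adamts4 at 3.39, Adam19 at 1.96, Adam12 at 1.31 and Adamts5 at 0.0344 CPM per kb. Among these neighbours only Adam17 and Adam15 had overlapping ranges. Adam8 thus stood at place 2 in shCtrl and at place 5 in shTlr7, and Adam15 moved from place 5 to place 3. Adamts4 and Adamts1 changed places, as did Adam12 and Adam19.

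**Figure D3:**
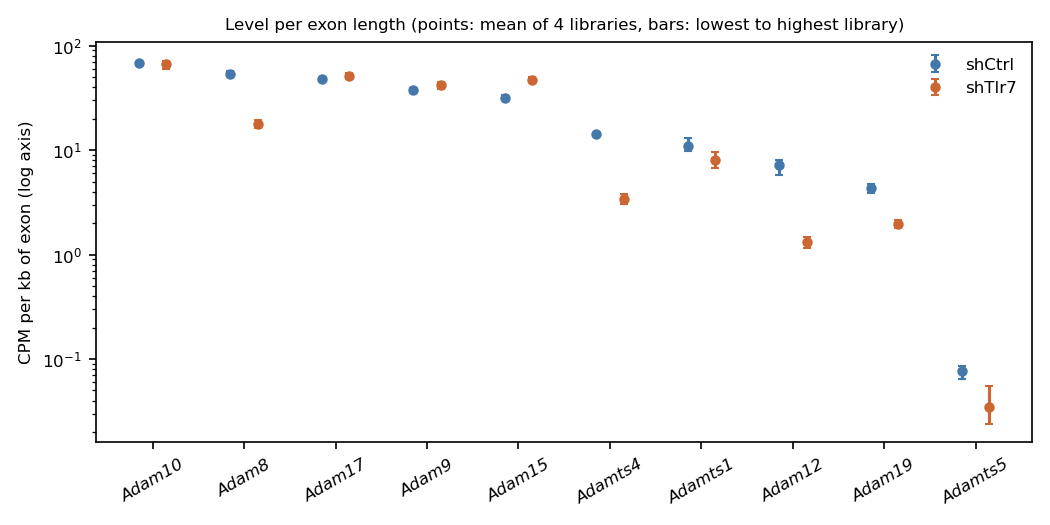
CPM per kb of exon on a log axis is plotted for the 10 genes, ordered by their shCtrl level. Points are means of 4 libraries and bars run from the lowest to the highest library. Adam8 drops from 53.5 to 17.8 CPM per kb, while Adam10, Adam17, Adam9 and Adam15 stay above 30 CPM per kb in both groups.

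Promoter windows of 300 bases, 250 before to 50 after a start site, were given by RefSeq (GRCm38.p6) for 6 of the 10 genes, in 8 windows: Adam8, Adam10, Adam15, Adam17, Adam19 and Adamts1. Adam9, Adam12, Adamts4 and Adamts5 had no entry. The windows were searched on both strands for the letters TGANTCA (the AP-1 motif), GGAATG (TEAD) and TTCNNNGAA (STAT). Matches were found only in 1 of the 3 windows of Adam19, a member that fell, and these are shown with the match in capitals.
Adam19 AP-1 match: gtccttcaccTGAGTCAgcgatgctcc
Adam19 TEAD match: cccctcctccCATTCCaggcagagcc
They lay at chr11:46055843-46055869 and chr11:46055942-46055967 on the plus strand. Of 32851 promoter windows of the same length, 7.81% held the AP-1 letters, 14.7% the TEAD letters and 8.30% the STAT letters. A match of letters is a description and not a binding site.

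The other genes around these proteases were taken from 11 lists of 138 genes, of which 84 were tested. Of these, 45 (53.6%) were called lower, against 26.8% of all tested genes, and 22 (26.2%) higher, against 29.3%. The median log2 fold change of the 84 was -0.26, against 0.01 over all tested genes.

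Further ADAMTS and ADAMTS-like genes were mostly lower. Of 22 listed, 10 were tested, and the median was -0.77. Of these 10, 8 were called lower (80%, against 26.8% over all tested genes) and 1 higher (10%, against 29.3%). Adamts14, a procollagen peptidase, fell from 78.4 ± 3.48 (SD, n = 4) to 36.5 ± 3.94 CPM (-1.10 in log2, edgeR adjusted p = 2.78e-08). Adamts7, which cuts cartilage oligomeric matrix protein, fell from 20.9 ± 1.10 to 11.8 ± 0.74 CPM. Adamtsl3, an ADAMTS-like matrix protein with no protease domain, fell from 13.5 ± 1.47 to 6.63 ± 0.80 CPM. Of 14 further ADAM genes only 4 were tested, 1 was lower (25% of them, near the 26.8% over all tested genes) and the median was -0.09. Adam11, which lacks the zinc site and is best known from neurons, had a log2 fold change of -0.35 (edgeR adjusted p = 0.0255), and Adam22 and Adam33 had -0.08 and -0.10 without passing. Leaving out shCtrl replicate 1 ended the call of Adam11 (edgeR adjusted p = 0.0618), as did leaving out replicate 1, 2 or 3 of shTlr7 (0.0563, 0.0694 and 0.0613). It was also lost with library size as the only scaling (-0.25, 0.104) and with no filter on low counts (0.0503).

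Of 10 tested partners that carry ADAM10 and ADAM17 to the surface, 4 were called higher and 3 lower (median 0.01), near the shares of 29.3% and 26.8% over all tested genes. Tspan14, a tetraspanin of the group that escorts ADAM10, fell from 137 ± 2.11 to 87.0 ± 1.54 CPM (-0.66 in log2, edgeR adjusted p = 8.82e-09). Rhbdf2, the inactive rhomboid iRhom2 that escorts ADAM17, had a log2 fold change of -0.25, and the sorting nexin Snx27 of 0.29. Among 5 tested proprotein convertases the median was -0.10. Of them, 2 were called higher (40%, against 29.3% over all tested genes) and 3 lower (60%, against 26.8%). Furin fell from 293 ± 14.5 to 238 ± 13.5 CPM (-0.30, edgeR adjusted p = 1.55e-04), Pcsk7 rose from 27.3 ± 0.55 to 41.3 ± 1.69 CPM, and Pcsk4 had a log2 fold change of -0.45.

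Of 8 listed inhibitors and clearance receptors 4 were tested. Called lower were 2 (50%, against 26.8% over all tested genes), and called higher were 0, against 29.3%. Timp2, a metalloprotease inhibitor, fell from 1304 ± 81.9 to 610 ± 33.7 CPM (-1.10 in log2, edgeR adjusted p = 3.32e-09). Lrp1, the endocytic receptor that takes up ADAMTS4 and ADAMTS5, fell from 681 ± 94.2 to 325 ± 45.6 CPM (-1.07, edgeR adjusted p = 8.94e-05). Reck, a membrane inhibitor, had a log2 fold change of 0.08 (edgeR adjusted p = 0.578). Timp1 did not pass either (-0.006, edgeR adjusted p = 0.938), and Timp3 had 3 counts over all libraries, too few to be tested.

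Genes whose products are shed were also counted. Among 6 tested ligands of the EGF receptor family 3 were called higher (50%, against 29.3% over all tested genes) and 2 lower (33.3%, against 26.8%). Neuregulin (Nrg1) fell from 12.0 ± 1.81 to 5.66 ± 0.77 CPM and Hbegf from 137 ± 19.7 to 74.1 ± 8.36 CPM, while betacellulin (Btc) rose from 8.33 ± 1.03 to 14.5 ± 1.93 CPM. Of 7 tested Notch receptors and ligands 6 were called lower (85.7%, against 26.8%) and 0 higher, against 29.3%. Their median was -0.49. The ligand Jag1 fell from 104 ± 13.4 to 43.9 ± 8.75 CPM (-1.25, edgeR adjusted p = 1.51e-04), and Notch2, Dll1 and Jag2 had log2 fold changes of -0.50, -0.58 and -0.43.

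Of 13 tested adhesion molecules 8 were called lower (61.5%, against 26.8% over all tested genes) and 4 higher (30.8%, near the 29.3% over all). The median was -0.28. The syndecan Sdc1 fell from 593 ± 49.3 to 295 ± 16.4 CPM and Alcam from 204 ± 19.6 to 115 ± 5.52 CPM, and the hyaluronan receptor Cd44 had a log2 fold change of -0.58. Of 11 tested cytokines and receptors 6 were called lower (54.5%, against 26.8%) and 4 higher (36.4%, against 29.3%). The membrane chemokine Cx3cl1 fell from 191 ± 3.15 to 112 ± 8.33 CPM, and Kitl, the ligand of the receptor Kit, rose from 31.3 ± 5.11 to 73.6 ± 5.60 CPM (1.23, edgeR adjusted p = 1.30e-06). Csf1r, which is also on the leukocyte marker list, fell from 1.14 ± 0.20 to 0.241 ± 0.055 CPM. It passed the filter on low counts only through shCtrl.

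Of 11 tested genes for the amyloid precursor family and other single-pass membrane proteins 4 were lower and 4 higher (36.4% each way, against 26.8% and 29.3% over all tested genes). The beta-secretase Bace1, which cuts APP at another site than the ADAMs do, fell from 70.5 ± 2.86 to 35.3 ± 1.91 CPM and App from 795 ± 5.12 to 601 ± 31.4 CPM. The receptor Mertk rose from 3.40 ± 0.70 to 9.74 ± 1.37 CPM (1.53 in log2, edgeR adjusted p = 1.21e-06). Among 13 listed matrix substrates of ADAMTS proteases only 3 were tested. Thrombospondin 1 (Thbs1) fell from 929 ± 161 to 327 ± 39.3 CPM and nidogen 1 (Nid1) from 1.30 ± 0.07 to 0.194 ± 0.035 CPM. Nid1 had 179 counts over all libraries and passed the filter on low counts only through shCtrl. Versican (Vcan) was at 0.727 ± 0.386 and 0.618 ± 0.100 CPM and did not pass, and the aggrecan gene Acan had too few counts to be tested.

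**Figure D4:**
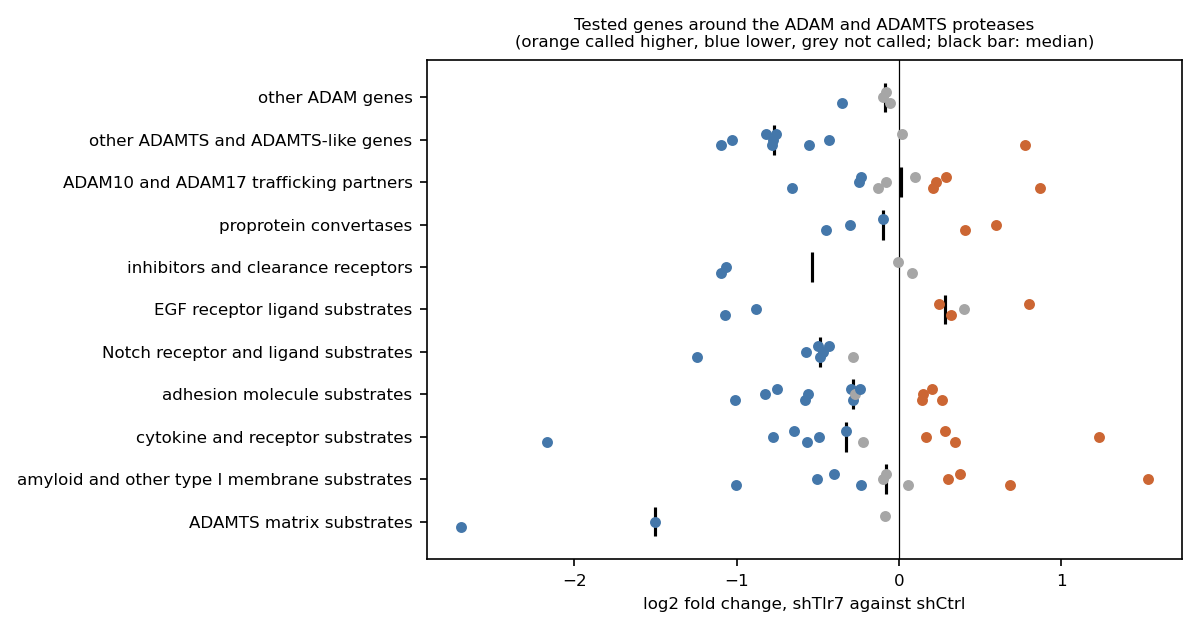
Each row is a list and each point a tested gene, placed by its log2 fold change of shTlr7 against shCtrl and coloured by its call, with the median as a black bar. Of 10 further ADAMTS and ADAMTS-like genes 8 lie to the left of 0 as called lower, and of 7 Notch genes 6 do. Of 6 EGF receptor ligands 3 were called higher. Over all tested genes 26.8% were called lower and 29.3% higher.

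Other genes had profiles over the 8 libraries close to those of Adam12 and Adamts4, the members with the largest changes. Likeness was measured as the root mean square difference of centred log2 CPM over the 8 libraries, among 10550 genes. Closest to Adam12 were the drug exporter gene Abcb1a at 0.067, the histone gene H2ax at 0.11 and the nucleotide receptor gene P2ry6 at 0.13. Closest to Adamts4 were Prxl2a at 0.10, Samsn1 at 0.12 and Pla2g7 at 0.13. The measure includes the difference between the groups, so genes chosen by it share the member's change by construction. The log2 fold changes of these 6 ran from -2.60 to -2.09.

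**Figure D5:**
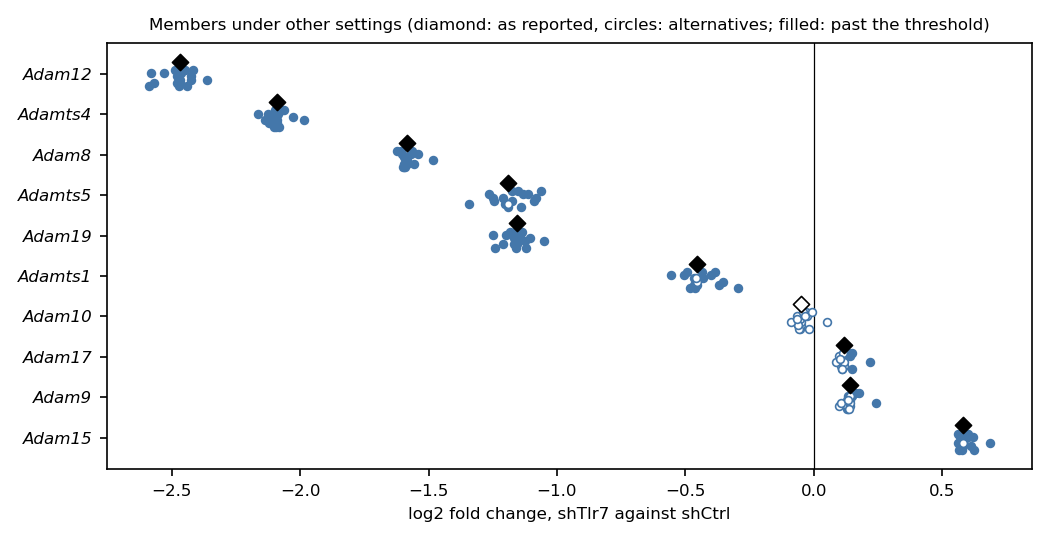
The log2 fold change of each gene is plotted as reported (diamond) and under each other setting of the processing (circles), with filled symbols for values past the threshold. Adam8, Adam12, Adam19 and Adamts4 are filled throughout, Adam9 and Adam17 hold open circles, and Adam10 lies on both sides of 0.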

How the data were processed

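Whole-number counts of reads per gene, with no normalization, were deposited by the authors as a single table with a column for each of 8 RNA-seq libraries. STAR 2.7.5, DESeq2 1.32.0 and GRCm38 are listed in the submitters' processing notes, with no role given. How reads were assigned to genes, with which annotation and strand setting, is not given in the sources used here. Sample titles gave the groups and replicate numbers.

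The analysis used edgeR 4.0.16 in R 4.3.3. After filterByExpr on the groups, 13393 genes were scaled by TMM and tested by robust glmQLFit and glmQLFTest with no covariate, adjusting p by Benjamini-Hochberg over all of them, with 0.05 as the threshold. CPM values use TMM-scaled library sizes. A standard error is the absolute log2 fold change over the root of the F statistic. The fit was tested on simulated data in which far fewer genes changed than were called here. Exon lengths and zinc sites came from GENCODE M21, and promoters and gene positions from RefSeq GRCm38.p6. Libraries of a group differed by more than sampling noise in every pair (chi-square per degree of freedom 2.19 to 22.6).

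The members and lists were chosen with earlier results of these data known. Named were all 10 members, and per list the 3 tested genes with the lowest p and every called gene with at least a 2-fold change. For the 2 members with the largest change, the 3 genes with the most similar profile were named. Timp1, Timp3 and Acan were named besides this rule. The 11 lists were the other ADAM genes, other ADAMTS genes, trafficking partners, convertases, inhibitors, EGF receptor ligands, Notch genes, adhesion molecules, cytokines and receptors, amyloid-type membrane proteins and ADAMTS matrix substrates. Alternatives were scaling by RLE or by library size, the DESeq2 1.42.0 test, limma-voom with quality weights (limma 3.58.1), no filter on low counts, 1 CPM in 4 libraries, an adjusted p under 0.01, glmTreat (fold 1.5), a block for the replicate number, leaving out each library, and leaving out both libraries numbered 4.

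Some results on single genes are not reported here.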

Additional observations from a re-analysis of the deposited data

Results flagged for a closer look

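Dixon's criterion was applied to 88 groups of 4 libraries, for the 10 members and the genes of the lists named by the rule (44 genes in all). In 6 of these groups 1 library lay far from the other 3, which chance meets in about 1 of 20 groups. Of these 6, 5 were shCtrl replicate 4. Adam15 was at 101 CPM in shCtrl replicate 4, against 90.7 to 92.3 CPM in the other shCtrl libraries. In the same library Timp2 was at 1183 CPM against 1335 to 1363 CPM, Notch2 at 198 against 177 to 179 CPM, Jag1 at 124 against 96.8 to 97.8 CPM, and Thbs1 at 1170 against 829 to 870 CPM. Jag2 was at 29.2 CPM in shTlr7 replicate 1 and at 26.0 to 26.1 CPM in the other shTlr7 libraries.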

How the results depend on the processing

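The calls of Adam8, Adam12, Adam19 and Adamts4 as lower stood under all 18 alternatives, with log2 fold changes from -1.62 to -1.48, -2.59 to -2.36, -1.25 to -1.05 and -2.16 to -1.99. The count of members called lower was 4 to 6. The count called higher was 3 as reported, 1 with RLE scaling, DESeq2 or an adjusted p under 0.01, 0 with glmTreat at a fold of 1.5, and 1 to 3 when a library was left out. glmTreat left 666 lower and 472 higher of all genes, and 15 lower and 2 higher of the listed genes, since it asks for a larger change. It also ended the calls of Adam15, Adamts1 and Adamts5 (0.0546). With library size as the only scaling, the median of all genes went from 0.01 to 0.11 and the split of all genes from 3590 lower and 3927 higher to 2491 and 5513. It turned the sign of 4 uncalled genes: Adam10 to 0.054, Adam33 to 0.0035, Adam22 to 0.025 and Vcan to 0.014. When 1 library was left out, the log2 fold change ran from -0.32 to 0.0080 for Adam33, from -0.33 to 0.083 for Adam22 and from -0.39 to 0.30 for Vcan, all without a call. Vcan was also positive with limma-voom (0.18) and without both libraries numbered 4 (0.34). The replicate numbers were not taken as pairs, as the labels tie them to no shared source and deviations from the group means correlated at -0.0068 for number 1, with 0.11, 0.12 and 0.38 for numbers 2 to 4. Numbers 3 and 4, but not 1 and 2, correlated best with their own number. With the replicate number as a block, calls over all genes went to 4005 lower and 4334 higher, 5 members were called lower and 3 higher, and Adamts1 had -0.46 (edgeR adjusted p = 0.0677). Depth limits Adamts5, with 8 to 37 counts per library.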
